A study of Mus musculus with 16 samples.

Results

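The Ifi200 family, also called PYHIN genes, lies in one cluster on distal mouse chromosome 1, the chromosome arm that also carries Fcgr2b. The 9 genes described here are Ifi202b, Ifi203, Ifi204, Ifi205, Ifi207, Ifi209, Ifi211, Mndal and Aim2, out of 22907 named genes on the arrays. The family was chosen by the measured signal of Ifi202b, which was seen to be switched on in Fcgr2b-deficient kidneys, so every value of Ifi202b below is a description and carries no test. Probes were assigned to a gene when the transcript named for them belonged to it. This gave 9 probes for 6 of the genes, Ifi202b, Ifi204, Ifi205, Ifi209, Mndal and Aim2, and all 9 were among the 35628 of 56605 probes that entered the tests. No probe was matched to Ifi203, Ifi207 or Ifi211, which were not analysed here. Where a gene had several probes, the one with the highest mean signal stands for it.

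PYHIN proteins bind DNA through a HIN domain, and most of them also carry a pyrin domain through which they join other proteins. AIM2 is the cytosolic DNA sensor that assembles an inflammasome with the adaptor ASC and caspase-1, whereas p204, the product of Ifi204, is placed with human IFI16 among the sensors that signal through STING to interferon genes. p202, the product of Ifi202b, lacks a pyrin domain and is known as an inhibitor of AIM2, and its gene is a candidate lupus gene of the Nba2 interval. Many genes of the family are themselves induced by interferon and are expressed chiefly in leukocytes.

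Kidney RNA of 16 mice at 6 months of age, 100 ng each, was measured on one-color arrays with 1 mouse per array and 4 mice per genotype. Wild-type and Sting gt/gt mice are labelled C57BL/6, and Fcgr2b-/- mice, labelled as the lupus mouse, and Fcgr2b-/-.Sting gt/gt mice (double-deficient) are labelled 129/C57BL/6. Sting gt is the Goldenticket allele, a functional loss of STING, the adaptor that relays cytosolic DNA sensing to interferon genes. Fcgr2b encodes the inhibitory Fc receptor for IgG, its deletion is carried by both groups with 129 ancestry, and heatmaps of the study head the columns of the Fcgr2b-/- group as Sting wt/gt. Loss of Fcgr2b and 129 ancestry on chromosome 1 therefore cannot be told apart in any comparison here. In the RefSeq gene order, 133 genes (69 protein-coding) lie between Fcgr2b and Aim2, the first gene of the cluster, and the cluster from Aim2 to Ifi205 holds 19 genes, 13 of them protein-coding.

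Values are log2 signals minus the 75th percentile of the array, so that 0 stands for that percentile and 1 unit for a 2-fold difference. Between 28441 and 35564 probes were well above background on each array. The kidney label held, since all 8 proximal tubule markers and all 6 podocyte markers were above background on every array. The deleted gene was read first. The Fcgr2b signal in replicates 1 to 4 was 2.13, 1.91, 1.60 and 1.14 in wild-type mice and 1.54, 1.05, 0.70 and -0.19 in Sting gt/gt mice. It was 0.70, 0.02, 0.06 and 0.19 in Fcgr2b-/- mice and -0.04, 0.50, -0.40 and -0.24 in double-deficient mice. All 16 arrays were above background, and whether the probe lies in the deleted part of the gene is not given in the sources used here. The array labelled Sting gt/gt replicate 4 lay among the deficient arrays and replicate 3 was level with the highest of them, 0.70 in both. On the second Fcgr2b probe, replicates 3 and 4 read -1.01 and -1.43, within the deficient range of -1.82 to -0.58. Replicate 2, at -0.53, lay just above that range. Replicate 4 was thus within the deficient range on both probes. The differences of the 5 tested members in comparisons that use Sting gt/gt mice are therefore also given without replicate 4. Neighboring genes and gene lists are given with it. Sting1 itself did not separate the Sting genotypes, with means of -0.23, 1.20, 0.10 and 0.29 in wild-type, Fcgr2b-/-, double-deficient and Sting gt/gt kidneys.

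The promoter sequences below are shown for the gene that was switched on, Ifi202b, and for Ifi205 and Mndal, the members whose signal was lower relative to Ifi204 in Fcgr2b-deficient kidneys. They are RefSeq sequences of the assembly GRCm38.p6, from 250 bases before to 50 bases after the transcript start, on the minus strand of chromosome 1. The assembly is that of C57BL/6J, so none of them is the 129 allele. No motif is marked in them, and Ifi204 had no entry. RefSeq lists a further start for Mndal, whose window is not printed.
Ifi202b, chr1:173982795-173983094: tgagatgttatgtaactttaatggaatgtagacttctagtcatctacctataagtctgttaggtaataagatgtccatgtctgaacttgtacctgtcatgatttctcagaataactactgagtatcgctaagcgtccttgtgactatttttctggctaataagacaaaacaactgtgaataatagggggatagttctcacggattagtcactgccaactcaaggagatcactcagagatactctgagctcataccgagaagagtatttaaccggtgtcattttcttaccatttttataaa
Ifi205, chr1:174031706-174032005: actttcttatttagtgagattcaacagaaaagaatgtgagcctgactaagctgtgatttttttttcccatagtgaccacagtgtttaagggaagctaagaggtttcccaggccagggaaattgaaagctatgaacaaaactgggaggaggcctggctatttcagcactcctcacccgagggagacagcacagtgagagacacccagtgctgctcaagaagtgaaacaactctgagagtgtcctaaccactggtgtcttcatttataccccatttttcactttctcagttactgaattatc
Mndal, chr1:173880138-173880437: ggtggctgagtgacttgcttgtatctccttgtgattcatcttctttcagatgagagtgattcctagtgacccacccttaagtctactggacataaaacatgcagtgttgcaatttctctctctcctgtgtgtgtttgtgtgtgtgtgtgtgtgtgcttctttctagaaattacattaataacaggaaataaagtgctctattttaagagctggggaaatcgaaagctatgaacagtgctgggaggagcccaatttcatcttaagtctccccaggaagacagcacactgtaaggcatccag

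Ifi202b was at background in every wild-type kidney and present in every Fcgr2b-deficient one. In wild-type replicates 1 to 4 the log2 signal was -7.48, -6.83, -6.57 and -7.31, and no array was well above background. In Fcgr2b-/- mice it was 3.27, -0.23, -1.06 and 1.94, and in double-deficient mice -0.52, 0.69, -0.39 and -1.47, with all 8 arrays well above background. These 8 arrays did not overlap with the wild-type arrays.

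Relative to the detection limit of the wild-type arrays, the mean of the Fcgr2b-/- group was at least 53.5-fold higher and that of the double-deficient group at least 20.2-fold higher. The bound is the bright group's mean against the lowest signal called well above background on each wild-type array. That limit is approximate, since a probe above it can go uncalled. Ifi209 in wild-type replicate 2 was uncalled at -4.49, where the lowest called signal was -4.56. For single kidneys the bound ran from at least 13.0-fold to at least 262-fold in Fcgr2b-/- mice and from at least 9.82-fold to at least 43.8-fold in double-deficient mice. The double-deficient mean differed from the Fcgr2b-/- mean by -1.40 on the log2 scale, with overlapping groups. Within slides this difference changed sign, at -2.18 on the slide holding 1 double-deficient and 3 Fcgr2b-/- arrays and 0.67 on the slide holding 3 and 1.

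**Figure D1:**
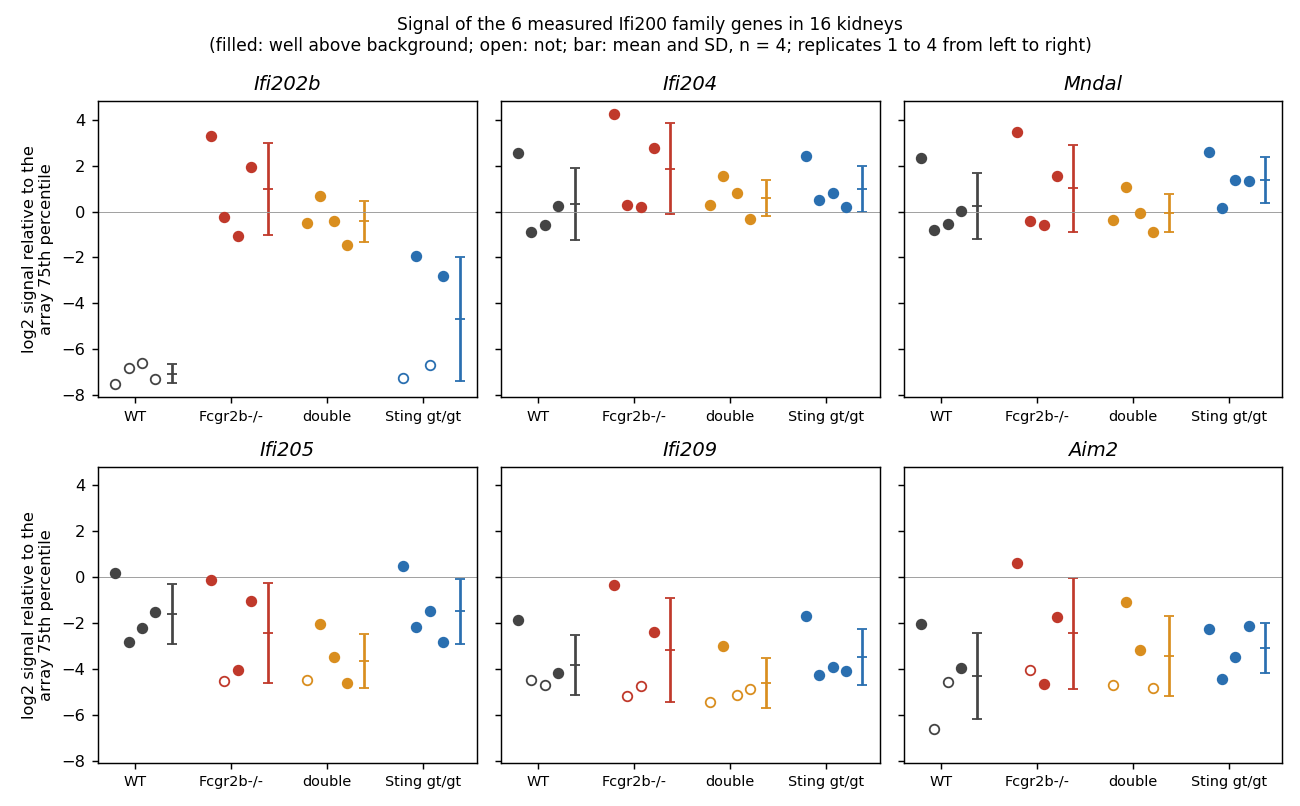
Log2 signal relative to the array 75th percentile (y axis) of the 6 measured genes in each of 16 kidneys, by genotype (x axis), with the mean and SD of 4 mice. Ifi202b was open, that is not well above background, on all 4 wild-type arrays and 2 of 4 Sting gt/gt arrays and filled on all 8 Fcgr2b-deficient arrays, whereas the groups of the other 5 genes overlapped.

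The Sting gt/gt mice, labelled C57BL/6 like the wild-type mice, were not uniform for Ifi202b. Replicates 1 and 3 were at background, at -7.24 and -6.69, whereas replicates 2 and 4 were well above it, at -1.91 and -2.78. The latter were at least 7.20-fold and at least 3.94-fold above the wild-type detection limit and still below each of the 8 Fcgr2b-deficient arrays. Fcgr2b read 1.05 in replicate 2 and -0.19 in replicate 4, and whether the genotype or strain of these mice bears on Ifi202b was not tested. The second Ifi202b probe gave the same split, with 0 of 4 wild-type, 4 of 4 Fcgr2b-/-, 4 of 4 double-deficient and 2 of 4 Sting gt/gt arrays above background.

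Of 35628 tested probes, 5 (0.014%) were above background on 0 of 4 wild-type and on 8 of 8 Fcgr2b-deficient arrays. They were both Ifi202b probes and the probes of Acod1, which makes the macrophage metabolite itaconate, Fpr1, a receptor for bacterial formyl peptides, and S1pr5, a sphingosine-1-phosphate receptor. Acod1 and Fpr1 were not above background on any Sting gt/gt array, and S1pr5 was above it on replicate 1. Of these 5 probes, those of Ifi202b were the ones above background on Sting gt/gt replicates 2 and 4.

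The named genes whose signal followed Ifi202b most closely over the 16 arrays were Itln1, Acod1, Fpr1, Cxcl13 and Clec4e, with Pearson r of 0.951, 0.917, 0.895, 0.876 and 0.868. Itln1, an intelectin that binds microbial sugars, lies between Fcgr2b and the cluster in the gene order. It was above background on 0 of 4 wild-type, 4 of 4 Fcgr2b-/-, 3 of 4 double-deficient and 0 of 4 Sting gt/gt arrays. Cxcl13, a B cell chemoattractant, was above background on 1, 3, 4 and 2 arrays of the groups in that order, and Clec4e, the macrophage receptor Mincle, on 1, 4, 4 and 0. These correlations describe 16 arrays whose genotypes differ, and signals at background enter them.

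The other 5 measured genes were above background in at least 2 of 4 wild-type kidneys and shared their highest arrays. Ifi204 was well above background on all 16 arrays. Its log2 signal in replicates 1 to 4 was 2.54, -0.91, -0.57 and 0.23 in wild-type, 4.23, 0.30, 0.18 and 2.76 in Fcgr2b-/-, 0.29, 1.55, 0.80 and -0.31 in double-deficient, and 2.44, 0.51, 0.82 and 0.19 in Sting gt/gt mice. Wild-type replicate 1, Fcgr2b-/- replicates 1 and 4, double-deficient replicate 2 and Sting gt/gt replicate 1 were the high arrays, and all groups overlapped.

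Mndal, which encodes a nuclear protein with a pyrin and a HIN domain, was also above background on all 16 arrays. It read 2.34, -0.79, -0.55 and 0.01 in wild-type, 3.45, -0.41, -0.58 and 1.55 in Fcgr2b-/-, -0.35, 1.07, -0.05 and -0.89 in double-deficient, and 2.59, 0.16, 1.38 and 1.34 in Sting gt/gt mice. The highest array of each genotype was the same as for Ifi204, and all groups overlapped.

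Ifi205, whose product p205 is a nuclear family member, read 0.19, -2.83, -2.20 and -1.51 in wild-type, -0.12, -4.51, -4.05 and -1.04 in Fcgr2b-/-, -4.46, -2.04, -3.47 and -4.62 in double-deficient, and 0.48, -2.15, -1.45 and -2.80 in Sting gt/gt mice. It was above background on 14 of 16 arrays, all but Fcgr2b-/- replicate 2 and double-deficient replicate 1. The lowest values were in Fcgr2b-deficient kidneys, yet the groups overlapped. Ifi209, a less studied interferon-inducible member, was dimmer, above background on 2 of 4 wild-type, 2 of 4 Fcgr2b-/-, 1 of 4 double-deficient and 4 of 4 Sting gt/gt arrays, with group means of -3.80, -3.16, -4.59 and -3.48.

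Aim2, the inflammasome sensor, read -2.03, -6.58, -4.57 and -3.93 in wild-type, 0.64, -4.04, -4.63 and -1.73 in Fcgr2b-/-, -4.66, -1.08, -3.15 and -4.82 in double-deficient, and -2.25, -4.42, -3.48 and -2.12 in Sting gt/gt mice. It was above background on 2, 3, 2 and 4 of 4 arrays of these groups, and the groups overlapped. Fcgr2b-/- replicate 1 was again the highest array.

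The array with the highest signal was the same for all 5 of these genes in wild-type (replicate 1), Fcgr2b-/- (replicate 1) and double-deficient kidneys (replicate 2), and for 4 of 5 in Sting gt/gt kidneys (replicate 1), with Aim2 the exception at replicate 4. Ifi202b had its highest signal in Fcgr2b-/- replicate 1 and double-deficient replicate 2 as well. Over the 16 arrays, Pearson r between pairs of the 5 genes ran from 0.62, for Ifi205 with Aim2, to 0.93, for Ifi209 with Mndal. Between Ifi202b and each of them it ran from -0.31, for Ifi205, to 0.41, for Aim2.

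Leukocyte markers were high on the same arrays, and so were the summed markers of perirenal fat and of endothelium. The summed level of 8 pan-leukocyte genes (Ptprc, Cd53, Laptm5, Coro1a, Itgb2, Rac2, Was and Hcls1), in units of the array 75th percentile, was 17.9, 4.36, 4.74 and 6.60 in wild-type and 77.3, 10.3, 10.9 and 50.1 in Fcgr2b-/- mice. It was 8.60, 17.2, 9.92 and 7.79 in double-deficient and 20.1, 7.92, 9.74 and 8.75 in Sting gt/gt mice. Between 7 and 8 of the 8 markers were above background on every array, and B cell Cd79a was not above background on any. On wild-type replicate 1, Fcgr2b-/- replicate 1, double-deficient replicate 2 and Sting gt/gt replicate 1, the fat sum was 131.8, 86.82, 29.45 and 65.01. These were the highest of each genotype, as were the endothelial sums of 153.3, 94.72, 84.55 and 137.7 on those arrays. In whole kidney, fewer cells of a type and less RNA per cell cannot be told apart. The part of leukocyte, fat or endothelial content in the differences between groups was not tested. Ifi202b was at background in wild-type replicate 1 and in replicate 1 of the Sting gt/gt mice, whose leukocyte sums of 17.9 and 20.1 were above those of 6 of the 8 Fcgr2b-deficient arrays.

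**Figure D2:**
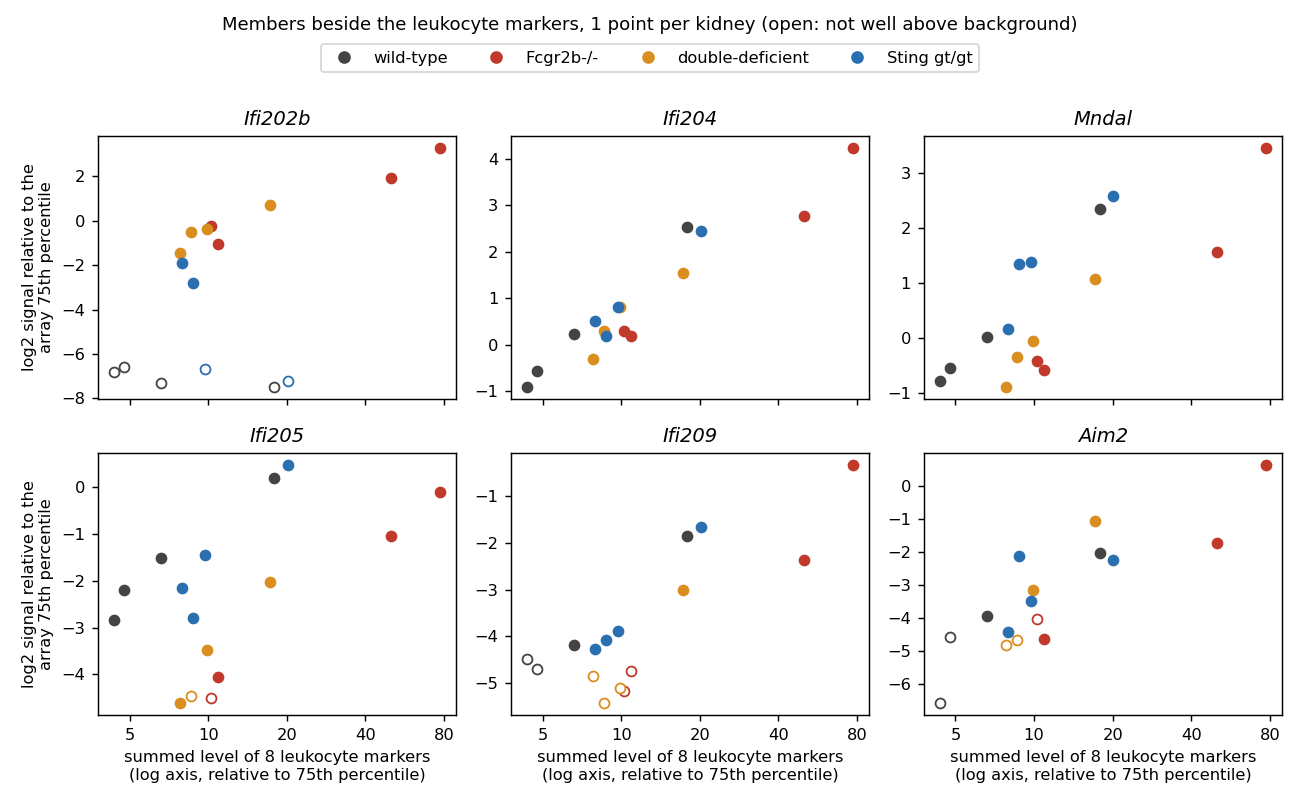
Log2 signal of each gene (y axis) against the summed level of 8 leukocyte markers (x axis, log scale, in units of the array 75th percentile), 1 point per kidney, colored by genotype, open where the gene was not well above background. Fcgr2b-/- replicate 1, at a sum of 77.3, was the highest point in 5 of the 6 panels, all but Ifi205. Ifi202b was at background in wild-type and Sting gt/gt kidneys with sums of 17.9 and 20.1. Perirenal fat and endothelial markers, not shown, were highest on the same array of each genotype as the leukocyte markers. The part of leukocyte, fat or endothelial content in these signals was not tested.

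Each genotype was compared with limma across all tested probes, with Benjamini-Hochberg adjusted p, and a probe was called at an adjusted p under 0.05 and at least 2-fold. Whether loss of Fcgr2b changed the 5 genes other than Ifi202b was asked with all 8 deficient and 8 sufficient arrays. None of the 5 was called, where 0.0674% of all probes were, and none had groups that did not overlap, where 0.0702% of all probes did. The log2 difference was 0.74 for Aim2, 0.57 for Ifi204, -0.23 for Ifi209, -0.34 for Mndal and -1.50 for Ifi205, with standard errors of 0.82, 0.63, 0.69, 0.61 and 0.71. Their median was -0.23 against -0.0089 over all probes. Ifi205 was the 1 gene with an unadjusted p under 0.05 (0.0498 by limma, adjusted p = 1.0), where 1.66% of all probes passed. The Mann-Whitney test named in the study's methods gave 0 of these genes under 0.05 with at least a 2-fold difference, unadjusted or adjusted. Only Ifi205 had a difference of that size. Of all probes 48% had a positive difference, as had 2 of the 5 genes. Each of the 5 differences had the same sign within both slides, and that of Ifi205 was -1.46 and -1.55. Without Sting gt/gt replicate 4 the differences were 0.90 for Aim2, 0.44 for Ifi204, -0.33 for Ifi209, -0.34 for Mndal and -1.72 for Ifi205.

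Probes of one gene did not always go together. The second Ifi205 probe, above background on 1 wild-type and 2 arrays of each other group, gave -0.081 (SE 0.83) in the same comparison. The second Aim2 probe, above background on 6 of 16 arrays, gave 1.51 (SE 0.60; limma adjusted p = 1.0). For Ifi208, another gene of the cluster, the tested probes also disagreed. Its brightest probe was above background on all 16 arrays with a difference of -0.15 (SE 0.19), while another, above background on 7 arrays and on none of the double-deficient ones, gave -2.04 (SE 0.67; unadjusted p = 0.00827, limma adjusted p = 1.0). Ifi213 was above background on 3 arrays and Ifi214 on 2, so neither entered the tests.

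With STING present, Fcgr2b-/- against wild-type, 4 of the 5 genes had a positive log2 difference, from 0.65 for Ifi209 to 1.84 for Aim2, and Ifi205 had -0.84. None was called by limma (adjusted p = 1.0 for each), against 0.0505% of all probes, a share that was 0% without Fcgr2b-/- replicate 4 or wild-type replicate 2, 3 or 4, and 0 had an unadjusted p under 0.05, against 3.35%. None had groups without overlap, against 1.24% of all probes, and 43.4% of all probes had a positive difference. The median was 0.75, and -0.055 over all probes. Within slides Ifi209, Mndal and Aim2 changed sign, from 0.55, 0.76 and 2.60 on the slide with 3 of the Fcgr2b-/- arrays to -0.31, -0.31 and -0.38 on that with 1. With STING absent, double-deficient against Sting gt/gt, all 5 differences were negative, from -0.36 for Aim2 to -2.16 for Ifi205, with a median of -1.12 against 0.011 over all probes. None was called by limma, as for 0% of all probes, or had groups without overlap, against 2.13%, and 51% of all probes had a positive difference. Ifi205 alone had an unadjusted p under 0.05, where 3.05% of all probes passed, and its adjusted p from limma was 0.885. Within slides its difference was -3.62 and -1.25, and Ifi204 changed sign, at -1.18 and 0.18. Without Sting gt/gt replicate 4 the differences of the latter ran from -0.047 for Aim2 to -2.60 for Ifi205.

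**Figure D3:**
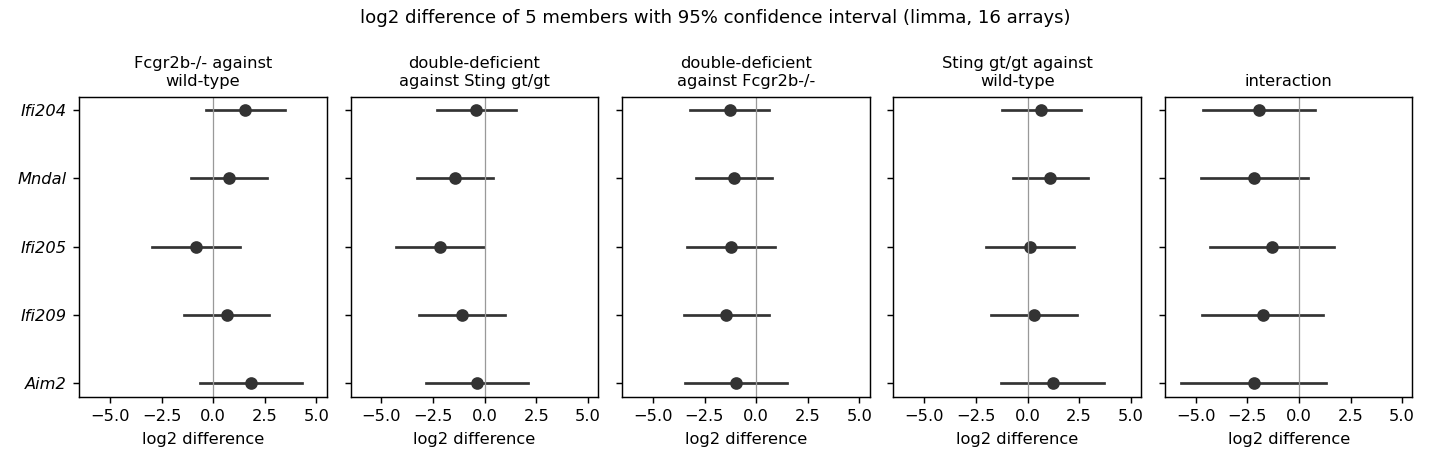
Log2 difference (x axis) of the 5 tested genes with its 95% confidence interval from limma, in 4 comparisons of 4 against 4 mice and, at the right, the interaction. The intervals crossed 0 in every panel except for Ifi205 in double-deficient against Sting gt/gt mice, where the interval ran from -4.29 to -0.039.

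Loss of STING on the Fcgr2b-deficient background gave lower mean signals for all 5 genes, from -0.99 for Aim2 to -1.44 for Ifi209, with a median of -1.22 against 0.055 over all probes. None was called by limma (adjusted p = 1.0), as for 0% of all probes, 0 had an unadjusted p under 0.05, against 1.81%, and none had groups without overlap, against 1.02%. Of all probes 57.4% had a positive difference. The slides divided this comparison. Within the slide holding 1 double-deficient and 3 Fcgr2b-/- arrays the 5 differences ran from -2.95 for Aim2 to -1.88 for Mndal, and within the slide holding 3 and 1 they ran from 0.43 for Ifi209 to 1.62 for Aim2. The high Fcgr2b-/- replicates 1 and 4 were both on the former slide, and the part of the slide in these values was not tested.

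Loss of STING alone, Sting gt/gt against wild-type, gave log2 differences of 0.10 for Ifi205, 0.33 for Ifi209, 0.66 for Ifi204, 1.11 for Mndal and 1.21 for Aim2. None was called by limma (lowest adjusted p = 0.733), as for 0% of all probes, 0 had an unadjusted p under 0.05, against 3.76%, and none had groups without overlap, against 2.04%. Of all probes 50.1% had a positive difference, and without Sting gt/gt replicate 4 the 5 values ran from 0.53 for Ifi209 to 1.12 for Mndal. The interaction, the change with loss of STING in Fcgr2b-deficient minus that in Fcgr2b-sufficient mice, was negative for all 5 genes. It ran from -1.32 for Ifi205 to -2.20 for Aim2, or from -1.76 for Ifi205 to -2.22 for Ifi204 without Sting gt/gt replicate 4, and was not called by limma for any of them (lowest adjusted p = 0.661; 0% of all probes called; 0 with an unadjusted p under 0.05, against 6.27% of all probes, of which 52% had a positive value). These comparisons share arrays with those above, so their signs are not independent.

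Since the members were high on the same arrays, each was also expressed relative to Ifi204 on the same array, a quantity chosen after the values were seen and given with no test. The level of one probe cannot be set against that of another, and the log2 ratio is read only for how it differs between arrays. It shows unequal change of the 2 probe signals and not which of them moved. Whether the transcripts themselves changed, or whether each probe reads the alleles of both strains equally well, was not tested. The log2 ratio of Ifi205 to Ifi204 was between -4.81 and -3.81 in Fcgr2b-/- and between -4.75 and -3.59 in double-deficient mice. It was between -2.35 and -1.63 in wild-type and between -2.99 and -1.96 in Sting gt/gt mice. The 8 deficient arrays lay below the 8 sufficient arrays without overlap, by a mean of -2.07, in mice with and without functional STING. Ifi205 was not above background on 2 of the 8 deficient arrays, so the size rests in part on signals at background, and with normexp background correction it was -1.33, still without overlap.

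The ratio of Mndal to Ifi204 had the same order, at -0.75 ± 0.22 (SD, n = 8) in deficient and 0.16 ± 0.49 (SD, n = 8) in sufficient kidneys, again without overlap. The ratio of Ifi202b to Ifi204 was -0.95 ± 0.24 (SD, n = 8) over the 8 deficient arrays, although Ifi202b itself spanned -1.47 to 3.27 on them. On the Sting gt/gt arrays where Ifi202b was above background it was -2.42 and -2.97. The ratios of Ifi209 and Aim2 overlapped between deficient and sufficient arrays, at mean differences of -0.81 and 0.17, and so did that of the second Ifi205 probe, at -0.65.

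Over all 35627 other probes, 0.0196% (7 probes) had a ratio to Ifi204 that was lower on all deficient arrays and 0.0898% (32 probes) one that was higher. The 5 named genes among the 7 were Ifi205, Mndal, Ifi208 through its dimmer probe, Slamf7 and Ddr2. RefSeq places all 5 on chromosome 1, which holds 6.03% of the named tested probes. Ifi205, Mndal and Ifi208 lie in the same cluster as Ifi204. The ratio was chosen after the values were seen, so this share is a description with no test. The Ifi208 probe was above background on 2 of 8 deficient arrays and that of Ifi205 on 6 of 8. Slamf7, as read for its correlation with Ifi205 below, was above background on 2 of 4 Fcgr2b-/- and 3 of 4 double-deficient arrays. Slamf7 encodes a receptor of lymphocytes and Ddr2 a collagen receptor. Of the 29 named probes with a higher ratio, 2 were on chromosome 1, and both were those of Ifi202b. The others included Clec4e, Clec4d and Clec4n, lectin receptors of macrophages, Fpr1 and Fpr2, Acod1, Ms4a7 and Spic.

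Against the mean of the 8 leukocyte markers in place of Ifi204, the deficient arrays were again lower for Ifi205 without overlap, at a mean difference of -2.53, and overlapped for Mndal, at -1.37. Against Mndal in place of Ifi204, Ifi205 overlapped, at -1.17.

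**Figure D4:**
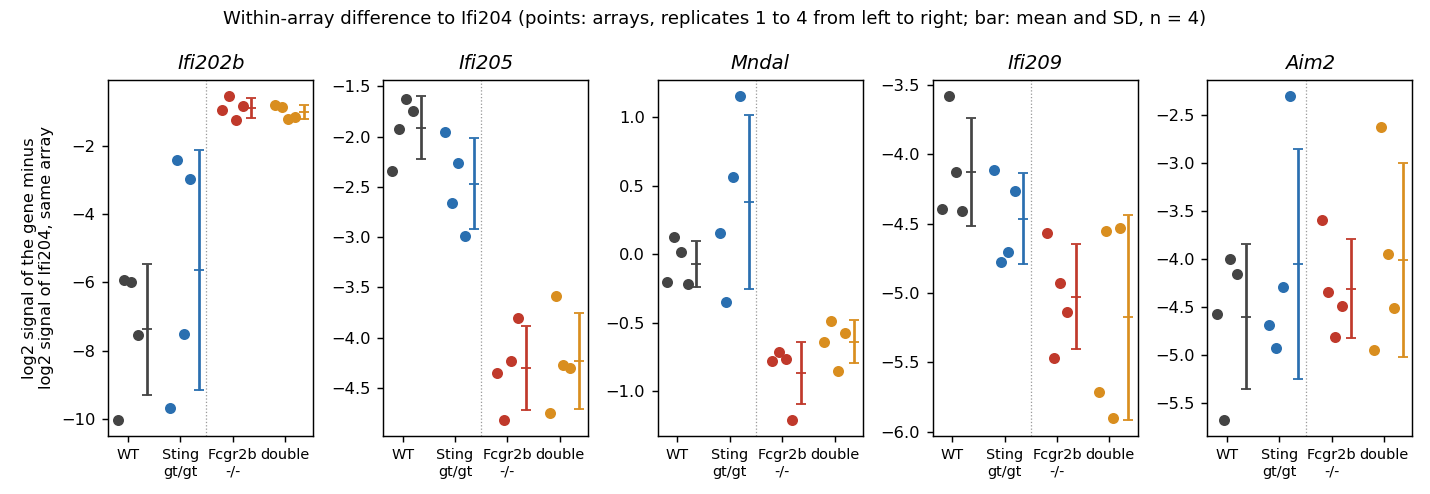
Log2 signal of each gene minus log2 signal of Ifi204 on the same array (y axis, own scale per panel), by genotype (x axis), with mean and SD of 4 mice. Right of the dotted line the 8 Fcgr2b-deficient arrays lie above the others for Ifi202b, below them for Ifi205 and Mndal, and among them for Ifi209 and Aim2.

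For each of the other members the gene that followed it most closely over the 16 arrays was Ap1s2 for Ifi204 (r = 0.992), Ccnd2 for Mndal (r = 0.982), Nnmt for Ifi209 (r = 0.960), Slfn10-ps for Aim2 (r = 0.957) and Slamf7 for Ifi205 (r = 0.939). The arrays differ in genotype and in leukocyte, fat and endothelial marker levels, which all these points share.

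Genes flanking the cluster were read in the comparison of 8 deficient with 8 sufficient arrays. Of the 10 tested genes on either side, 20 in all, 11 had a positive difference, where 48% of all probes had, and the median was 0.080 against -0.0089 over all probes. An unadjusted limma p under 0.05 was found for 4 of the 20, where 1.66% of all probes passed. Of the 20, 1 was called, where 0.0674% of all probes were. This was Dusp23, a dual-specificity phosphatase gene separated from Aim2 by 1 tested gene, which fell by 2.67 on the log2 scale (SE 0.40; limma adjusted p = 0.0128). Its signal was between 0.05 and 2.29 on the 8 sufficient arrays and between -2.76 and -0.21 on the 8 deficient ones, without overlap. On Sting gt/gt replicates 2 and 4, where Ifi202b was above background, Dusp23 read 1.03 and 1.23. The wild-type arrays ran from 0.05 to 2.17. The difference was -2.64 with STING present and -2.71 with STING absent.

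**Figure D5:**
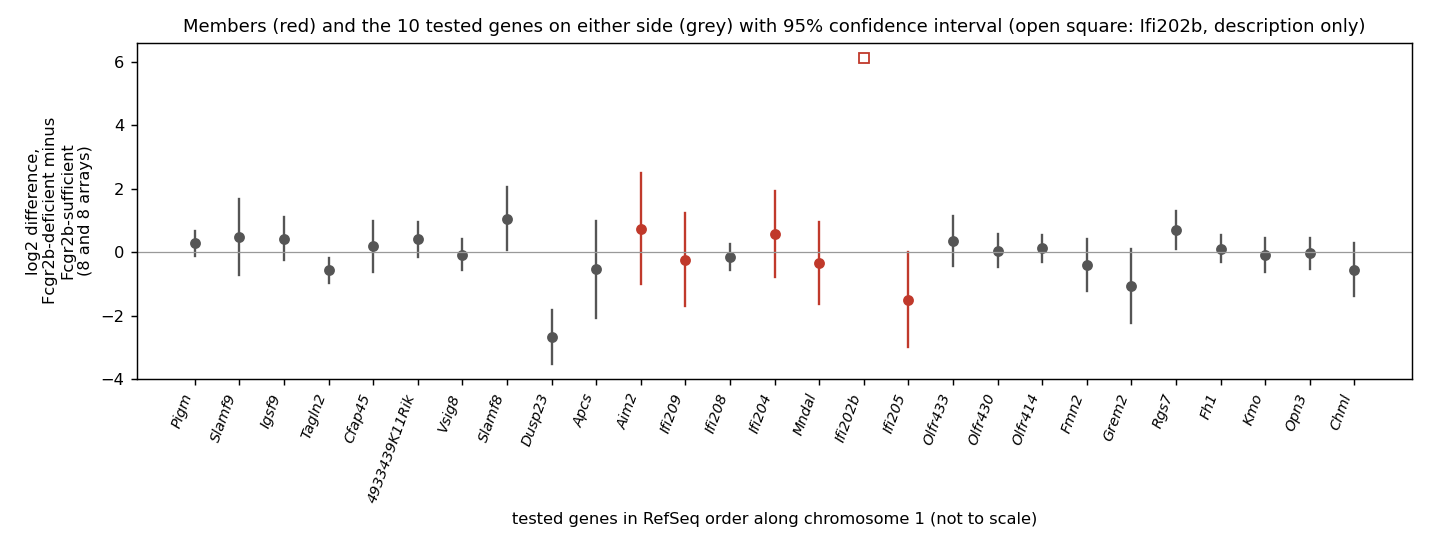
Log2 difference between 8 Fcgr2b-deficient and 8 Fcgr2b-sufficient arrays (y axis) of the tested genes of the cluster and of 10 tested genes on either side, in RefSeq order and not to scale (x axis), with 95% confidence intervals from limma except for Ifi202b, which is a description. Dusp23, at -2.67, was the called gene, and the place of Ifi202b is no measured size, since it was at background on 6 of the 8 sufficient arrays.

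Genes that act with the family in DNA sensing were taken as lists, and in this comparison limma called 0 genes of any list. Of all probes 0.0674% were called in it and 1.66% had an unadjusted p under 0.05. Counts are also given with STING present (Fcgr2b-/- against wild-type) and absent (double-deficient against Sting gt/gt). Among 16 DNA sensors and adaptors, 7 had a positive difference with STING present and 8 with STING absent. In the comparison of 8 with 8 arrays 8 did, the median was 0.0099 and 0 had an unadjusted p under 0.05. The nucleic acid sensor gene Zbp1 had 0.77 (SE 0.50) and Sting1 0.61 (SE 0.47). Of 15 tested genes of signalling below STING, 10 had a positive difference with STING present (median 0.54) and 6 with STING absent (median -0.30). In the comparison of 8 with 8 arrays 13 did, with a median of 0.10. The kinase gene Ikbke had 1.19 (SE 0.33; unadjusted p = 0.00254, limma adjusted p = 0.944), and Cxcl10, an interferon-induced chemokine gene, had 0.82 (SE 0.40; limma adjusted p = 1.0).

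Of 10 tested inflammasome genes, 9 had a positive difference with STING present (median 0.77) and 4 with STING absent (median -0.070). In the comparison of 8 with 8 arrays 8 did, with a median of 0.29. The list holds Nlrp3, Nlrc4 and Casp4 besides genes of the AIM2 inflammasome. Il1b, the cytokine processed by caspase-1, had 2.08 (SE 0.58; unadjusted p = 0.00252, limma adjusted p = 0.944) and the inflammatory caspase gene Casp4 had 0.90 (SE 0.65). Of 10 nucleases and other enzymes that limit nucleic acid sensing, 5 had a positive difference with STING present and 4 with STING absent. In the comparison of 8 with 8 arrays 6 did. The largest sizes were -0.45 (SE 0.51) for Dnase1 and 0.42 (SE 0.53) for Dnase1l3. Of 12 interferon receptors and factors, 11 had a positive difference with STING present (median 0.55) and 4 with STING absent (median -0.13). In the comparison of 8 with 8 arrays all 12 did, with a median of 0.21. The largest were 0.33 for the kinase gene Tyk2 (SE 0.26) and 0.31 for the receptor gene Ifngr2 (SE 0.22), and 0 had an unadjusted p under 0.05. These counts are read beside the 48% of all probes with a positive difference and their median of -0.0089. With STING present 43.4% of all probes had a positive difference, and with STING absent 51%. Of the genes named from these lists, Sting1, Casp4 and Dnase1 changed sign between the latter comparisons.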

How the data were processed

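Scanner files of 16 one-color arrays were used. The authors deposited processed intensities, background-subtracted by Agilent Feature Extraction 11.0, and log2 values of these arrays, whose normalization is not given in the sources used here. The array's 75th percentile was subtracted from each log2 intensity, after removal of control and outlier spots and averaging of replicate spots, with numpy 2.4.6 and pandas 2.3.3 in Python 3.11.15. Probes detected well above background on 4 or more of 16 arrays were fitted with limma 3.58.1 (R 4.3.3), a mean per genotype over all arrays, lmFit and eBayes, and checked on simulated data.

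Probes were named through RefSeq GRCm38.p6, whereas the arrays were designed on mm9, so gene order but no array coordinates was taken from it. Genes named are all members, other PYHIN genes, the targeted genes, the genes most correlated with each member, called genes among 20 neighbors, and 2 genes per DNA sensing list by size of difference. Genes of the ratio to Ifi204 and the genes absent in wild-type kidneys were added after their values were seen. The members and lists were chosen with earlier results of these data known. Nothing states separate litters, so p-values cover the spread between these mice. With 4 against 4 the exact two-tailed Mann-Whitney test cannot go below p = 0.0286. Precision is limited by the number of arrays. Alternatives were normexp (offset 50, on the median spot signal that the files give), quantile and median scaling, the authors' table, other filters, trend and robust eBayes, no fold threshold, any probe or the median of the probes, slide or replicate number as a block, the Mann-Whitney test, and each array left out.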

Additional observations from a re-analysis of the deposited data

Results flagged for a closer look

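Ifi209 in Sting gt/gt replicate 1 read -1.68, whereas the other 3 Sting gt/gt arrays lay between -4.27 and -3.89. Its gap to the nearest of them was 0.854 of the range of the group. Over 24 groups of 4 arrays examined, this was the 1 such gap above Dixon's 95% limit, and chance gives about 1 in 20. The leukocyte marker sum was 20.1 on this array and between 7.92 and 9.74 on the others of the group. The perirenal fat and endothelial sums were also the highest of the group on this array, at 65.01 and 137.7. The part of these contents in the value was not tested.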

How the results depend on the processing

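Of the 5 tested members, 0 were called in any of the 6 comparisons under any alternative run. The filter for probes above background on all arrays left only Ifi204 and Mndal to test. The Mann-Whitney test was not run for the interaction. Outside deficient against sufficient and Fcgr2b-/- against wild-type mice, 0% of all probes were called in the main fit. There the count had little room to change. Of 1072 values of single genes under alternatives, 1047 kept their direction and side of the threshold, 20 reversed and 5 moved. On leaving out each array in turn, the log2 difference ranged from -0.70 to 0.10 for Ifi209 and from -0.75 to 0.011 for Mndal in deficient against sufficient mice. For Fcgr2b-/- against wild-type it ranged from -0.29 to 1.32 for Ifi209 and from -0.068 to 1.44 for Mndal, both reversing without Fcgr2b-/- replicate 1. For double-deficient against Sting gt/gt it ranged from -0.73 to 0.080 for Ifi204 and from -1.15 to 0.10 for Aim2, for double-deficient against Fcgr2b-/- from -1.77 to 0.038 for Aim2, and for Sting gt/gt against wild-type from -0.55 to 0.70 for Ifi205 and from -0.27 to 0.98 for Ifi209. With the median of the probes, Ifi205 was 0.034 in Fcgr2b-/- against wild-type and Aim2 0.26 in double-deficient against Sting gt/gt. Ifi205 in Sting gt/gt against wild-type was -0.11 with quantile normalization, -0.14 with median scaling and -0.099 in the authors' table. Median scaling moved the median of all probes to -0.21 in Fcgr2b-/- against wild-type, 0.14 in double-deficient against Sting gt/gt, -0.24 in Sting gt/gt against wild-type and 0.32 in the interaction. Under normexp, the ratio of Ifi205 to Ifi204 differed by -1.33. Fitted differences of Ifi202b against arrays at background also moved under normexp and are not given as sizes. The ratios were chosen after seeing the data, as were their alternatives, and Ifi209 against Mndal in place of Ifi204 differed by 0.10. With any array left out, the ratio of Ifi205 differed by -2.19 to -2.0 and that of Mndal by -0.98 to -0.77. Leaving out an array cannot create overlap, so the separation is not tested by this. Calls over all probes, 24 in deficient against sufficient and 18 in Fcgr2b-/- against wild-type mice, were 13 and 10 under normexp and 6 and 0 among probes above background on all arrays, and 23 and 7 in the authors' table. The 18 fell to 0 in a fit of those groups alone and without wild-type replicate 2, 3 or 4 or Fcgr2b-/- replicate 4, to 3 without Fcgr2b-/- replicate 1 and to 5 without Sting gt/gt replicate 2 or any 1 double-deficient array, and rose to 37 without Fcgr2b-/- replicate 2. The causes of these changes were not tested. Replicate numbers did not pair the mice, since correlations of same-numbered deviations ran from -0.60 to 0.69 with 11 of 24 above 0.1, and with the replicate number as a block 0 members were called. Signal near background limits Ifi209, Aim2 and the second probes.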
